A study of Mus musculus with 12 samples.

Results

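The genes described here are 9 markers of alpha-beta and gamma-delta T cells, taken by name from a table of 56923 genes: *Cd3d*, *Cd3e*, *Cd3g*, *Cd4*, *Cd8a*, *Trac*, *Trdc*, *Trdv4* and *Foxp3*. All 9 passed the filter on low counts, as did 18529 genes of the whole table. They were measured by RNA sequencing of back skin in 4 groups of 3 female mice aged 8 to 10 weeks: WT control, WT IMQ, KO-labelled control and KO-labelled IMQ. WT mice were littermates of the mutants, and the KO-labelled mice are described in the methods as *Lcn2*-/- on a C57BL/6 background and in the genotype labels as an LCN2 knockdown. IMQ (imiquimod, an agonist of the Toll-like receptor TLR7) was applied every day to shaved back skin as a 5% cream for 6 days to produce psoriasis-like lesions. For controls the treatment protocol names vehicle, while their treatment label reads none. *Lcn2* encodes lipocalin 2, a secreted iron-siderophore binding protein that neutrophils and keratinocytes release in inflamed skin.

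T cells recognise antigen through a receptor of paired chains, alpha with beta or gamma with delta, and every such receptor needs the CD3 gamma, delta and epsilon chains (*Cd3g*, *Cd3d*, *Cd3e*) to reach the surface and signal. *Trac* and *Trdc* encode the constant regions of the alpha and delta chains, and *Trdv4* is a delta variable segment. *Cd4* and *Cd8a* encode coreceptors of helper and cytotoxic alpha-beta T cells, and *Foxp3* the transcription factor that defines regulatory T cells. Mouse epidermis holds a resident population of gamma-delta T cells, the dendritic epidermal T cells, whose receptor joins the segments *Tcrg-V5* and *Trdv4*. Mouse dermis holds other gamma-delta T cells, many of them producers of interleukin 17 with *Tcrg-V4* or *Tcrg-V6* receptors, and the latter also use *Trdv4*. *Cd4* is also carried by some macrophages and dendritic cells, and *Cd8a* by some dendritic cells.

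The gamma variable segments tell these gamma-delta populations apart, while *Trdv4* is shared by epidermal and *Tcrg-V6* cells. The last 60 bases of the 4 segments that matter here are shown, read from the GENCODE M21 transcripts of GRCm38. All lie on the forward strand. Capitals mark TACTGT, the codons of the tyrosine and the conserved cysteine after which the segment is joined to the rest of the receptor gene.
Trdv4 (chr14:54074905-54075515): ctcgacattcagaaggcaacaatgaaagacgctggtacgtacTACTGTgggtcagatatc
Tcrg-V5 (chr13:19192278-19192725): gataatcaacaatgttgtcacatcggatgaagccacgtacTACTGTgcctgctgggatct
Tcrg-V6 (chr13:19190356-19190929): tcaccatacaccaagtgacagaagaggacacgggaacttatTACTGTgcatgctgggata
Tcrg-V4 (chr13:19184974-19185506): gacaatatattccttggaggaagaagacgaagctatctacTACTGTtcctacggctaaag
In none of these 4 segments did any stretch of 75 bases occur in the transcripts of another annotated gene, although 18.5% of the exon bases of *Tcrg-V4* overlap a gene on the opposite strand.

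The libraries held between 16448226 and 28592110 counted reads, and a level of 3 counts, used as the detection floor, lay between 0.0984 and 0.201 CPM (counts per 1000000 counted reads, scaled by edgeR's TMM method). Skin markers matched the labelled tissue: the summed level of 10 keratinocyte genes was at least 5770 CPM in every library, and 10 retina genes, checked because the extraction protocol in the labels speaks of retinas, summed to at most 3.03 CPM, with *Crx* and *Nrl* at 0 in every library. *Lcn2* was counted in all KO-labelled libraries, at 9.21 to 15.9 CPM in controls and 29.8 to 49.7 CPM after IMQ, beside 4.57 to 8.63 and 61.1 to 183 CPM in WT mice. By edgeR's test *Lcn2* rose 3.19-fold after IMQ in KO-labelled skin (adjusted p = 0.0121). Between the genotypes it did not pass an adjusted p of 0.05, after IMQ (log2 fold change -1.49, adjusted p = 0.0525) or in controls (0.87, adjusted p = 0.794). Reads on a partly deleted gene can remain, so these counts check the genotype only in part. Their source was not tested, and the word KO-labelled is kept for that reason. Hair follicle markers varied widely among controls, with sums from 95.6 to 3150 CPM in WT and from 305 to 9950 CPM in KO-labelled skin.

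In WT skin, the CD3 chains, *Trac* and *Trdv4* were lower after IMQ. Of the 9 genes, 5 fell (*Cd3d*, *Cd3g*, *Trac*, *Trdv4* and *Cd3e*) and 0 rose, by edgeR's quasi-likelihood test at a Benjamini-Hochberg adjusted p under 0.05, in a comparison that called 14.3% of all tested genes lower and 14.2% higher. Their median log2 fold change was -2.02, against -0.02 over all tested genes. For the same 5 genes the WT groups did not overlap, with every IMQ mouse below every control mouse, as was so for 20.6% of tested genes (20.1% were higher without overlap). By the looser rule of an unadjusted p under 0.05 and a fold change above 2, *Trdc* and *Cd8a* were also lower, 7 members in all, where 9.79% of tested genes were lower and 8.4% higher. In whole skin, fewer T cells and less RNA per T cell cannot be told apart. Keratinocyte markers moved with this result, summing to 5770 to 9050 CPM in WT controls and 30100 to 40000 CPM after IMQ (7 of 10 higher, 1 lower, none at 0), and so did neutrophil markers, at 25 to 59.1 CPM and 6090 to 10200 CPM (7 of 10 higher). Dendritic and Langerhans cell markers were lower together with the T cell genes, at 220 to 250 CPM and 92.9 to 147 CPM (5 of 10 lower, 0 higher, none at 0). The part of these cells in the result was not tested. The sum of 10 pan-leukocyte markers, among them *Ptprc* (CD45), overlapped between the WT groups, at 429 to 1170 CPM and 828 to 1420 CPM, and 0 of the 10 were called by edgeR, with *Ptprc* at an unadjusted p of 0.608.

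**Figure D1:**
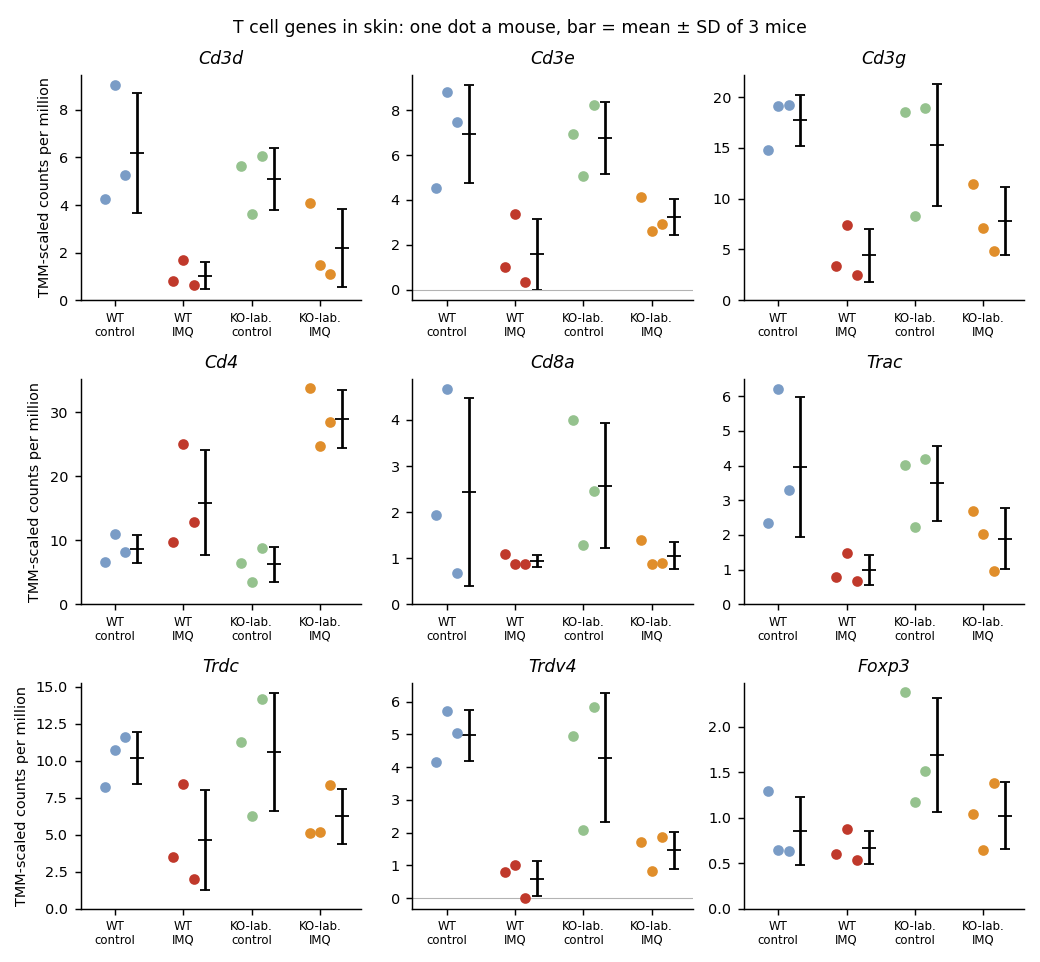
Level of each of the 9 genes in TMM-scaled CPM (y axis, linear, 1 scale per gene) in the 4 groups (x axis). Each dot is a mouse and the bar is the mean ± SD of 3 mice. *Cd3d*, *Cd3e*, *Cd3g*, *Trac* and *Trdv4* are lower in all 3 WT IMQ mice than in any WT control, while *Cd4* has its highest mean in the KO-labelled IMQ mice, which overlap the WT IMQ mice.

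The CD3 genes form a cluster of 40056 bases on chromosome 9, in which *Cd3g* (ENSMUSG00000002033, chr9:44969572-44980431, reverse strand) and *Cd3d* (ENSMUSG00000032094, chr9:44981786-44987339, forward strand) start 1355 bases apart and run away from each other. *Cd3d* was at 4.25, 9.06 and 5.26 CPM in the WT controls and 0.787, 1.68 and 0.629 CPM in the WT IMQ mice. It fell 6.08-fold (log2 fold change -2.60, SE 0.55, adjusted p = 0.00461). *Cd3g*, the CD3 gene with the most counts, was at 14.8, 19.1 and 19.2 CPM in WT controls and 3.33, 7.38 and 2.52 CPM after IMQ. It fell 4.05-fold (log2 fold change -2.02, SE 0.45, adjusted p = 0.00649). *Cd3e* (ENSMUSG00000032093, chr9:44998740-45009627, reverse strand) was at 4.52, 8.80 and 7.49 CPM in WT controls and 1.03, 3.36 and 0.339 CPM after IMQ. Its fall was 4.51-fold (log2 fold change -2.17, SE 0.59, adjusted p = 0.0179), and it was not called in the fit without the first WT IMQ mouse (adjusted p = 0.0808) or in edgeR on the 6 WT mice alone (0.0636). The second WT IMQ mouse had the highest value of the WT IMQ mice for all 3 CD3 genes.

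Since *Cd3d* and *Cd3g* moved together, the 150 bases before each start are shown, from the RefSeq promoter windows of GRCm38.p6, written in the direction of transcription. Capitals mark CACCTG, an E-box, the kind of motif that E proteins bind.
Cd3d (chr9:44981636-44981785, forward): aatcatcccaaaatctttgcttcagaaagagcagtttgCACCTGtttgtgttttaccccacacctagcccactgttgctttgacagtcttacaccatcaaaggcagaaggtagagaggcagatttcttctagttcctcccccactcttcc
Cd3g (chr9:44980432-44980581, reverse): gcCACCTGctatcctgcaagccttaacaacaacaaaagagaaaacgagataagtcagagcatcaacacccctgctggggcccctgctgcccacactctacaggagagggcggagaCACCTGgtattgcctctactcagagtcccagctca
In windows of 300 bases (250 before the start and 50 after it), CACCTG or its reverse complement CAGGTG occurred in all 3 CD3 genes and in neither *Cd8a* nor *Foxp3*, the other members with a window. Of all 32851 windows in the table, 20.2% held it. The letters are a description of these windows and not evidence of binding.

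Of the receptor chains, *Trac* (ENSMUSG00000076928, chr14:54220521-54224206, forward strand), the alpha constant region, was at 2.35, 6.22 and 3.29 CPM in WT controls. After IMQ it was at 0.787, 1.48 and 0.677 CPM in WT mice. The fall was 4.07-fold (log2 fold change -2.03, SE 0.50, adjusted p = 0.011), with an adjusted p of 0.0512 when the first or the third WT IMQ mouse was left out. *Trdv4* (ENSMUSG00000076867), the delta segment of epidermal T cells and also of dermal *Tcrg-V6* cells, was at 4.15, 5.71 and 5.04 CPM in WT controls and 0.787, 1.01 and 0 CPM after IMQ. The third WT IMQ mouse had 0 counts, which allows up to 0.145 CPM, and the others 13 and 15 counts against 90 to 133 in controls. The fitted fall of *Trdv4* was 8.60-fold (log2 fold change -3.10, SE 0.76, adjusted p = 0.011). *Trdc* (ENSMUSG00000104876, chr14:54142851-54148868, forward strand), the constant region of every delta chain, was at 8.21, 10.7 and 11.6 CPM in WT controls. It was at 3.51, 8.46 and 1.98 CPM after IMQ, so the groups overlapped through the second IMQ mouse. The adjusted p was 0.0869 (log2 fold change -1.14, SE 0.46), and without that mouse 0.00575 (log2 fold change -1.90), while without the third IMQ mouse it was 0.239 (log2 fold change -0.77). Of the exon bases of *Trdc*, 7.84% overlap genes on the opposite strand, and whether the counting used strand is not given in the sources used here.

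The ratio of *Trdv4* counts to *Trdc* counts, which are counted separately, was lower after IMQ in WT skin. Per 100 *Trdc* counts, the WT controls had 50.6, 53.4 and 43.6 *Trdv4* counts and the WT IMQ mice 22.4, 11.9 and 0. In KO-labelled skin the numbers were 43.8, 33.1 and 41.2 in controls and 33.3, 15.7 and 22.1 after IMQ. The WT groups are apart, while the highest KO-labelled IMQ mouse lies just above the lowest KO-labelled control. This ratio was formed after its values were seen and was not tested.

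The gamma segment that pairs with *Trdv4* in epidermal T cells, *Tcrg-V5*, was at or near 0 counts after IMQ in both genotypes. It had 45, 74 and 70 counts in WT controls and 0, 2 and 0 in WT IMQ mice (2.08, 3.18 and 3.72 CPM against 0, 0.134 and 0 CPM). KO-labelled controls had 76, 40 and 74 counts and KO-labelled IMQ mice 1, 0 and 0. The ratio of summed counts was 77.2-fold lower in WT (95% exact interval 21.1 to 642) and 133-fold lower in KO-labelled skin (23.6 to 5280), intervals that cover counting error only. Both falls passed the edgeR test (adjusted p = 0.000209 and 0.000358). The segments of dermal gamma-delta T cells were rare: *Tcrg-V4* had 5, 47 and 2 counts in WT controls and 5, 11 and 5 after IMQ, and was not called (adjusted p = 0.524). *Tcrg-V6* had 2 to 6 counts in WT controls, 1, 12 and 0 in WT IMQ mice and 15, 0 and 8 in KO-labelled IMQ mice, too few for the test. Of the 11 gamma and delta variable segments listed, 4 could be tested, and *Tcrg-V5* and *Trdv4* were the 2 that fell in WT skin.

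**Figure D2:**
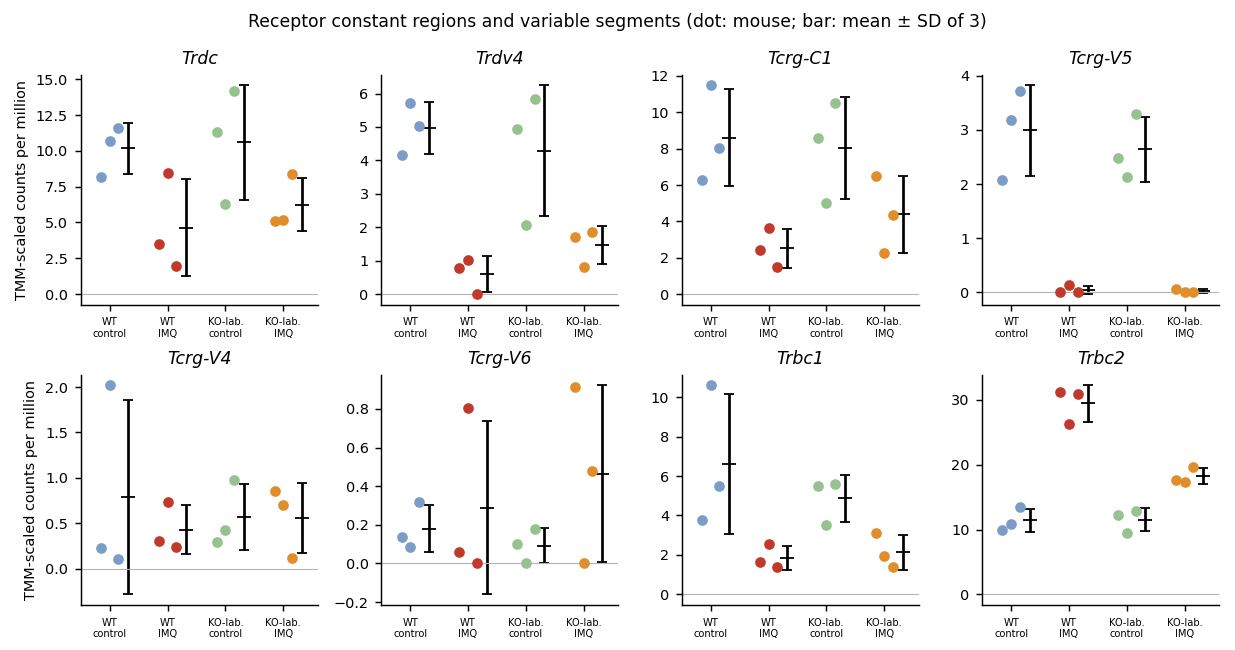
TMM-scaled CPM (y axis, linear, 1 scale per gene) of constant regions and variable segments in the 4 groups (x axis). Each dot is a mouse and the bar the mean ± SD of 3 mice. *Tcrg-V5* is at or below 0.134 in all 6 IMQ mice and at or above 2.08 in all 6 controls, and *Trbc2* moves opposite to *Trbc1*.

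Neither coreceptor passed the test in WT skin. *Cd4* (ENSMUSG00000023274, chr6:124864692-124888221, reverse strand) was at 6.60, 11 and 8.23 CPM in WT controls and 9.68, 25.1 and 12.9 CPM in WT IMQ mice. Its log2 fold change was positive, 0.88 (SE 0.38), and did not pass the test (adjusted p = 0.107). *Cd8a* (ENSMUSG00000053977, chr6:71373427-71379173, forward strand) was at 1.94, 4.68 and 0.690 CPM in WT controls and 1.09, 0.873 and 0.871 CPM after IMQ. The third control was thus below all IMQ mice, and the adjusted p of 0.114 (log2 fold change -1.37, SE 0.61) became 0.028 without it (log2 fold change -1.81) and 0.567 without the second control (-0.48). *Cd8b1*, the partner chain, was at 0.531 to 2.10 CPM and 0.339 to 0.537 CPM in the same groups, and did not pass (adjusted p = 0.122, log2 fold change -1.62). *Foxp3* (ENSMUSG00000039521, chrX:7573644-7595245, forward strand) was the lowest member, at 1.29, 0.644 and 0.637 CPM in WT controls and 0.605, 0.873 and 0.532 CPM after IMQ. That is 12 to 28 counts against 10 to 13, and the adjusted p was 0.595 at a log2 fold change of -0.37 (SE 0.47). *Foxp3* is also the least certain count, since 31.5% of its exon bases lie in exons of other genes, *Ccdc22*, *Flicr* and *Ppp1r3f* among them.

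In KO-labelled skin, *Cd4* rose after IMQ and was the 1 member called. It was at 6.53, 3.41 and 8.78 CPM in KO-labelled controls and 33.7, 24.7 and 28.4 CPM in KO-labelled IMQ mice. The rise was 4.62-fold (log2 fold change 2.21, SE 0.39, adjusted p = 0.00264), in a comparison that called 14.1% of tested genes higher and 11.2% lower. The other 8 members had negative log2 fold changes, none of them past the threshold. They lay between -0.74 for *Foxp3* and -1.56 for *Trdv4* (SE 0.69, adjusted p = 0.12). The median over the 9 members was -0.97, against -0.05 over all tested genes. At an unadjusted p under 0.05, 4 members differed (*Cd4*, *Cd3d*, *Cd3g* and *Trdv4*), where 19.7% of tested genes were higher and 18.8% lower. With a fold change above 2 as well, *Cd4*, *Cd3d* and *Trdv4* were left, where 8.59% of tested genes were higher and 8.37% lower.

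By mouse, *Cd3d* was at 5.64, 3.62 and 6.06 CPM in KO-labelled controls and 4.09, 1.46 and 1.08 CPM after IMQ (log2 fold change -1.21, SE 0.51, adjusted p = 0.102). The first KO-labelled IMQ mouse alone overlapped the controls, and without it the fall was called (log2 fold change -2.01, adjusted p = 0.0201). *Cd3e* was at 6.95, 5.06 and 8.25 CPM and 4.15, 2.63 and 2.93 CPM, groups that did not overlap (log2 fold change -1.06, SE 0.56, adjusted p = 0.183). *Trdv4*, at 4.95, 2.08 and 5.84 CPM against 1.71, 0.817 and 1.86 CPM, was the other member whose groups were apart with lower values after IMQ. These are 2 of 9 members, where 22.8% of tested genes were lower and 23.1% higher without overlap. In edgeR on the 6 KO-labelled mice alone, *Cd3e* and *Trdv4* passed the threshold (adjusted p = 0.0261 and 0.0412), and in DESeq2 on these mice *Cd3g* did too.

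For *Cd3g* the KO-labelled values were 18.5, 8.30 and 18.9 CPM in controls and 11.4, 7.12 and 4.85 CPM after IMQ, with the second control inside the range of the IMQ mice. *Trac* was at 4.03, 2.24 and 4.19 CPM and 2.68, 2.04 and 0.958 CPM. *Trdc* was at 11.3, 6.28 and 14.2 CPM and 5.12, 5.20 and 8.38 CPM. In each of these 3 genes the second KO-labelled control was the lowest control and overlapped the IMQ mice. *Cd8a* was at 4, 1.28 and 2.45 CPM in controls and 1.40, 0.876 and 0.898 CPM after IMQ. *Foxp3* was at 2.39, 1.17 and 1.52 CPM in controls and 1.04, 0.642 and 1.38 CPM after IMQ, groups that overlapped through the third IMQ mouse.

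Markers of other leukocytes moved with the rise of *Cd4* in KO-labelled skin. All 10 pan-leukocyte markers were called higher, with sums of 328 to 704 CPM in controls and 1400 to 1980 CPM after IMQ, and none at 0 in either group. Of 10 macrophage markers, 9 were higher, with sums of 1360 to 2730 CPM and 5590 to 7900 CPM, and none at 0. With the summed pan-leukocyte counts as the library size, a setting added after seeing the data, *Cd4* was not called by edgeR (log2 fold change 0.58, adjusted p = 0.247). That scaling moved the median of all tested genes by -1.76, and called 15095 of them lower and 212 higher. The lower value of *Cd4* therefore does not tell which cells carry it. Dendritic and Langerhans cell markers went the other way, with 5 of 10 lower, none at 0, and sums of 230 to 302 CPM and 101 to 123 CPM. Whether T cells or other cells carry the added *Cd4* was not tested.

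**Figure D3:**
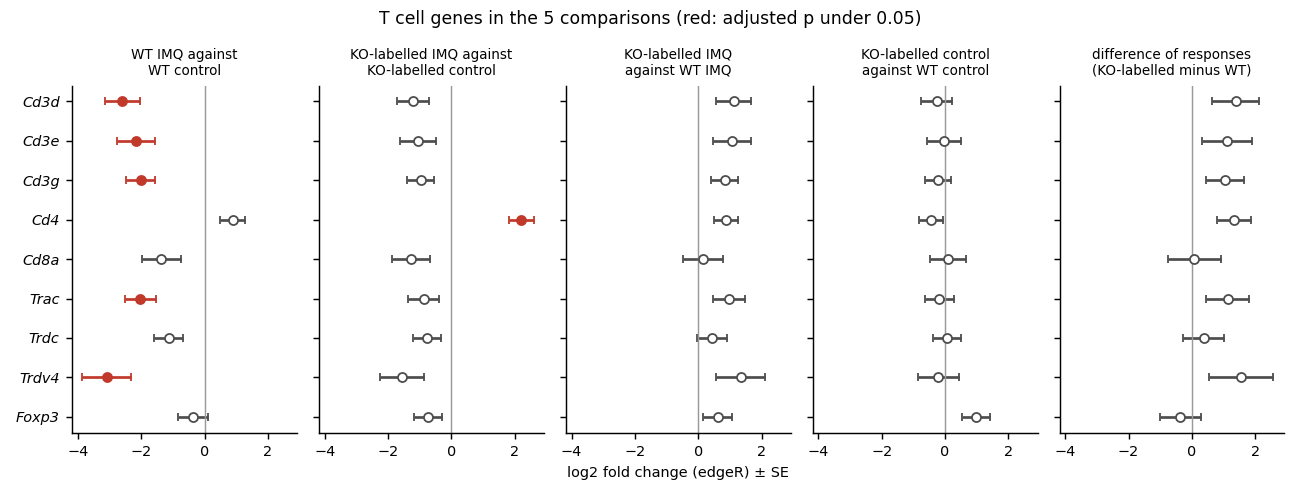
Log2 fold change from edgeR with its standard error (x axis) of the 9 genes (y axis) in the 5 comparisons, 3 mice a group. Filled red points passed an adjusted p under 0.05: 5 genes in WT IMQ against WT control and *Cd4* in KO-labelled IMQ against KO-labelled control.

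Between the IMQ-treated genotypes, 0 of the 9 members passed the edgeR test, and 1 (*Cd4*) had an unadjusted p under 0.05. This comparison called 2.19% of tested genes higher and 2.6% lower, and at an unadjusted p under 0.05 it had 12.5% higher and 14.5% lower. These shares rest on single mice: there were 405 higher and 481 lower calls with all mice, 1288 and 1438 without the second WT IMQ mouse, and at most 1 and 3 without any 1 of the other IMQ mice. No member kept the groups apart (16% of tested genes were higher and 17.3% lower without overlap), and no member had an unadjusted p under 0.05 with a fold change above 2 (3.1% higher and 3.35% lower). All 9 log2 fold changes were above 0 in KO-labelled IMQ against WT IMQ mice, with a median of 0.87 against -0.02 over all tested genes. *Cd4* differed by 0.87 (SE 0.38, 95% interval 0.13 to 1.61, adjusted p = 0.167), *Cd3d* by 1.12 (interval 0.03 to 2.20, adjusted p = 0.218) and *Cd3e* by 1.07 (interval -0.09 to 2.24, adjusted p = 0.266). The intervals of the CD3 genes therefore hold both values near 0 and a difference of 1.70 or more on the log2 scale. For *Cd8a* the difference was 0.16 (interval -1.08 to 1.41) and for *Trdc* 0.44 (interval -0.48 to 1.35). With the second WT IMQ mouse left out, *Cd3e* (2.27, adjusted p = 0.0163) and *Cd4* (1.36, adjusted p = 0.0311) were called higher in KO-labelled skin.

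The difference between the genotypes' responses to IMQ passed the test for 0 of 9 members. Of the tested genes, 1.37% were called with a higher and 0.783% with a lower response in KO-labelled skin, and at an unadjusted p under 0.05 the shares were 12.2% and 11.9%. With single mice left out, the 253 higher and 145 lower calls became 1015 and 912 without the second WT IMQ mouse, 2 and 0 without the third WT IMQ mouse, and numbers between these without any other. *Cd4* had the smallest p, with a difference of responses of 1.33 (SE 0.54, unadjusted p = 0.0302, adjusted p = 0.163) on the log2 scale. It alone had an unadjusted p under 0.05 with a fold above 2, as did 6.06% of tested genes on the higher and 4.91% on the lower side. For *Cd3d* it was 1.39 (interval -0.05 to 2.83), for *Trdv4* 1.55 (interval -0.43 to 3.53) and for *Foxp3* -0.37 (interval -1.65 to 0.91). The called falls of WT skin are therefore not shown to be absent from KO-labelled skin. Without the second WT IMQ mouse, the differences of *Cd3e* (2.31, adjusted p = 0.0385) and *Cd4* (1.83, adjusted p = 0.0373) were called. These comparisons share mice with those above and are not independent of them.

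In control skin, 0 of 9 members passed the edgeR test between the genotypes, where 0.0054% of all genes were called in each direction. *Cd3e* differed by -0.04 (interval -1.10 to 1.02), *Trac* by -0.18 (interval -1.08 to 0.72) and *Trdc* by 0.06 (interval -0.81 to 0.94) in KO-labelled against WT controls. In edgeR's quasi-likelihood test *Foxp3* was the 1 member with an unadjusted p under 0.05, at a log2 difference of 0.98 (SE 0.45, unadjusted p = 0.0477, adjusted p = 0.752), where 2.65% of tested genes were higher and 3.95% lower at that threshold. Its groups overlapped, the lowest KO-labelled control being below the highest WT control, and no member's groups were apart (4.19% of tested genes were higher and 5.17% lower without overlap). With a fold change above 2 required too, no member was left, of 1.35% of tested genes higher and 0.928% lower.

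On the scale of CPM per kilobase of annotated exon, *Trdv4* had the highest value in WT controls, 11.2 ± 1.76 (SD, n = 3). It was followed by *Cd3g* at 5.41 ± 0.776, *Trac* at 4.23 ± 2.16 and *Cd3d* at 3.41 ± 1.40. *Trdc* at 2.63 ± 0.451, *Cd4* at 2.14 ± 0.556 and *Cd3e* at 1.70 ± 0.537 came next, then *Cd8a* at 0.670 ± 0.561 and *Foxp3* at 0.187 ± 0.0822. From *Cd3g* to *Cd3e* each neighbour in this order lay within the spread of the next. *Trdv4* is the shortest member, at 444 exon bases, while *Trdc* has 3865. The divisor is every annotated exon base of a gene, whether or not the transcripts in skin hold it. The order therefore depends on the annotation too, and *Trdv4* above *Trdc* is not read as more transcript. In WT IMQ mice *Cd4* came first at 3.94 ± 2.02, ahead of *Cd3g* at 1.35 ± 0.798 and *Trdv4* at 1.35 ± 1.19, within the spread of the mice. In KO-labelled IMQ mice *Cd4* at 7.18 ± 1.12 was above *Trdv4* at 3.29 ± 1.27 and *Cd3g* at 2.38 ± 1.02 by more than these spreads. KO-labelled controls kept *Trdv4* (9.66 ± 4.43), *Cd3g* (4.65 ± 1.83) and *Trac* (3.73 ± 1.16) at the head of the order.

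Of 11 chain and constant region genes (5 of them members), 7 fell and 1 rose in WT skin, and 0 fell and 1 rose in KO-labelled skin. For this list and those below, 14.2% of all tested genes were called higher and 14.3% lower in WT skin. In KO-labelled skin these shares were 14.1% and 11.2%. The gamma constant regions *Tcrg-C2* and *Tcrg-C4* were not called in either genotype, with log2 fold changes of -0.36 and -0.72 in WT and 0.32 and -0.07 in KO-labelled skin. *Cd247*, the zeta chain, fell 3.18-fold in WT skin (log2 fold change -1.67, SE 0.39, adjusted p = 0.00824), although 60.3% of its exon bases lie in exons of other genes, *Pou2f1* among them. *Tcrg-C1*, a gamma constant region, fell 3.44-fold (log2 fold change -1.78, SE 0.44, adjusted p = 0.011). The beta constant region *Trbc1* was at 3.78, 10.6 and 5.47 CPM in WT controls and 1.63, 2.55 and 1.40 CPM after IMQ, and fell 3.58-fold (adjusted p = 0.00865). *Trbc2*, its near-identical neighbour, was at 9.92, 10.9 and 13.4 CPM and 31.2, 26.2 and 30.9 CPM, and rose 2.58-fold (log2 fold change 1.37, SE 0.17, adjusted p = 0.000135). It also rose 1.58-fold in KO-labelled skin (adjusted p = 0.0137) and was lower in KO-labelled IMQ than in WT IMQ mice (log2 fold change -0.69, SE 0.16, adjusted p = 0.0404). Of the stretches of 75 bases in *Trbc2*, 37.7% also occur in *Trbc1*, and how the counting divided such reads is not given in the sources used here, so both values are uncertain.

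Among 27 tested genes of T cell receptor signalling and the T lineage, 12 fell and 1 rose in WT skin, and 5 fell and 1 rose in KO-labelled skin. *Cd2*, an adhesion receptor, fell 3.94-fold in WT skin (log2 fold change -1.98, SE 0.40, adjusted p = 0.00351). *Trat1*, a transmembrane adaptor of the receptor, fell 11-fold (log2 fold change -3.46, SE 0.75, adjusted p = 0.00561) in WT and 16.7-fold (adjusted p = 0.004) in KO-labelled skin. The kinase gene *Lck* fell 2.67-fold (adjusted p = 0.0102) in WT and 2.06-fold (adjusted p = 0.0418) in KO-labelled skin. *Lef1* fell 10.5-fold and 14-fold, a gene that hair follicles also express, and whose fall goes along with that of the follicle markers *Lhx2*, *Lgr5* and *Krt28* in both genotypes. *Thy1*, also made by fibroblasts and at 124 to 323 CPM in WT skin far above the CD3 genes, fell 1.86-fold in WT skin (adjusted p = 0.00832). In KO-labelled skin its log2 fold change was 0.04 (SE 0.21) with TMM scaling and -0.15 without it. The adaptor gene *Fyb*, shared with myeloid cells, was the 1 that rose in KO-labelled skin, 4.72-fold (adjusted p = 0.00932).

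Of 14 tested CD8 and cytotoxic genes (*Cd8a* among them), 4 fell and 0 rose in WT skin: *Klrk1*, *Prf1*, *Nkg7* and *Cst7*. *Klrk1*, the NKG2D receptor that epidermal T cells carry, fell 4.27-fold (log2 fold change -2.09, SE 0.43, adjusted p = 0.00389), and *Prf1*, perforin, fell 3.74-fold (adjusted p = 0.0164). In KO-labelled skin, 1 of the 14 changed: granzyme A (*Gzma*) rose 15.5-fold (log2 fold change 3.95, SE 0.94, adjusted p = 0.0116). *Gzma* had 27, 3 and 6 counts in KO-labelled controls and 120, 146 and 100 after IMQ, so the size rests on controls near the floor. With single mice left out its log2 fold change was between 3.6 and 5.03 (the latter without the first KO-labelled control). The call was lost without the third KO-labelled control or with no filter on low counts. Of all tested genes, 14.2% were called higher and 14.3% lower in WT skin, and 14.1% and 11.2% in KO-labelled skin. Among 14 genes tied to regulatory T cells (*Foxp3* among them), 3 rose and 1 fell in WT skin, and 4 rose and 4 fell in KO-labelled skin. Among those that rose was *Areg*, an epidermal growth factor family ligand that other skin cells also express. It rose 13.1-fold (adjusted p = 2.07e-06) in WT and 2.71-fold (adjusted p = 0.00116) in KO-labelled skin. Those that fell were *Gata3* in both genotypes and *Tnfrsf4*, *Ikzf2* and *Tnfrsf18* in KO-labelled skin. Which cells carry these changes was not tested.

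Transcripts of interleukin 17 itself were higher after IMQ in WT skin. Of 13 genes of interleukin 17 producing gamma-delta T cells, 3 rose and 1 fell in WT skin, and 2 rose and 1 fell in KO-labelled skin, counts to be read beside the 14.2% and 14.1% of all tested genes called higher. *Il17f* was at 0.185, 0.172 and 0.106 CPM in WT controls and 2.90, 5.5 and 2.85 CPM after IMQ, and rose 23.1-fold (log2 fold change 4.53, SE 0.44, adjusted p = 2.86e-05). Its WT controls had 4, 4 and 2 counts, so the size of the rise rests on values near the floor. *Il17a* had 0, 2 and 4 counts in WT controls and 10, 19 and 10 after IMQ, and rose 7.69-fold (adjusted p = 0.017). In KO-labelled skin *Il17a* rose 5.86-fold (adjusted p = 0.0191), while *Il17f* was at 0.820, 1.54 and 1.11 CPM in controls and 2.38, 2.39 and 2.10 CPM after IMQ and did not pass the test (adjusted p = 0.0628). *Sox13*, a transcription factor of gamma-delta T cells that other cells of skin also express, fell 2.33-fold in WT and 2.12-fold in KO-labelled skin (adjusted p = 0.0076 and 0.016).

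Of 20 tested genes of residence and homing, 1 rose and 3 fell in WT skin, and 6 rose and 3 fell in KO-labelled skin. Such counts stand beside 14.2% of all tested genes called higher and 14.3% lower in WT skin. In KO-labelled skin the shares were 14.1% and 11.2%. *Ccr4*, a skin-homing chemokine receptor, fell 4.92-fold and 3.73-fold (adjusted p = 0.0125 and 0.0281). *Xcl1*, a chemokine made by epidermal T cells and natural killer cells, fell 10-fold and 5.80-fold (adjusted p = 0.00329 and 0.0106). Of 14 tested cytokine and chemokine genes that attract or keep T cells in skin, 1 rose and 3 fell in WT skin, and 3 rose and 4 fell in KO-labelled skin. The WT counts of both lists are not read as a result about the lists. *Ccl27a*, a keratinocyte chemokine for skin-homing T cells, was lower by 2.89-fold and 4.76-fold (adjusted p = 0.00383 and 0.000692), and *Il15*, a survival factor of epidermal T cells, fell 1.96-fold in WT skin (adjusted p = 0.00569).

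The *Skint* genes encode butyrophilin-like proteins of keratinocytes, and *Skint1* is needed for the development of epidermal T cells. Of 11, 6 fell in WT and 8 in KO-labelled skin, and 0 rose in either, while their medians were -1.77 and -2.03. *Skint1* itself was not called, with log2 fold changes of 0.43 (SE 0.43) in WT and -0.29 (SE 0.43) in KO-labelled skin, and neither was *Skint3*, at 0.66 and -0.20. *Skint5* was lower by 47.4-fold (log2 fold change -5.57, SE 0.73, adjusted p = 0.000269) in WT and 29.2-fold (adjusted p = 0.000628) in KO-labelled skin, and *Skint7* by 18.3-fold and 27.3-fold (adjusted p = 0.00016 and 0.000139). *Skint9* was lower by 5.24-fold and 5.63-fold (adjusted p = 0.00681 and 0.00699). These falls went against the rise of the keratinocyte marker sum given above.

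**Figure D4:**
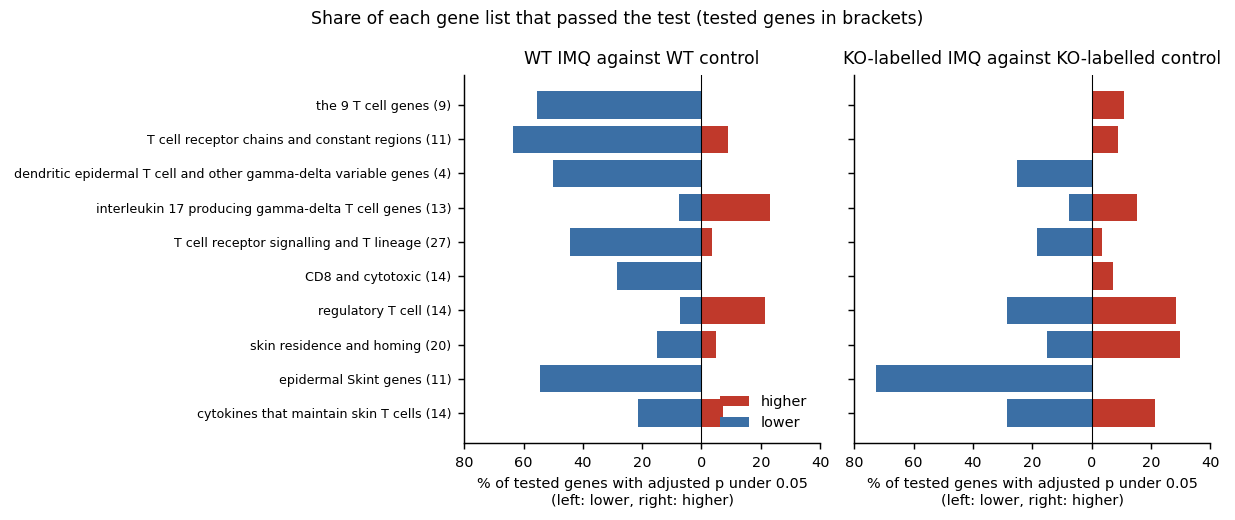
Share of the tested genes of each list (y axis, number tested in brackets) with an adjusted p under 0.05 from edgeR, as a percent (x axis, lower to the left in blue, higher to the right in red), after IMQ in WT (left) and KO-labelled skin (right). Receptor chains and signalling genes lie mostly on the lower side in WT skin, and more than 50% of the *Skint* genes on the lower side in both.

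Ratios within a mouse do not depend on the library size. With 3 mice against 3, an exact two-sided permutation test cannot give less than 0.1, and after adjustment over the 20 ratio tests the smallest value was 0.333, so none could pass 0.05. *Cd3e* relative to *Ptprc* had a mean log2 ratio of -3.93 ± 0.84 (SD, n = 3) in WT controls and -6.89 ± 1.44 in WT IMQ mice, a 7.77-fold lower ratio without overlap (exact permutation p = 0.1). In KO-labelled skin it was -3.66 ± 0.36 and -5.97 ± 0.52, a 4.98-fold lower ratio, also without overlap (exact permutation p = 0.1). *Trdc* relative to *Ptprc* was 3.17-fold and 3.94-fold lower in WT and KO-labelled skin, in both without overlap. In KO-labelled skin *Ptprc* itself rose 2.28-fold (adjusted p = 0.032 from edgeR), so that part of these ratios comes from the denominator.

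The ratio of delta to alpha constant region overlapped between the groups. *Trdc* relative to *Trac* was at 2.76 (geometric mean ratio of counts) in WT controls and 4.21 in WT IMQ mice, with overlapping values (exact permutation p = 0.3). In KO-labelled skin it was 2.99 and 3.49 (exact permutation p = 1). *Cd8a* relative to *Cd4* was 11.1-fold lower after IMQ in KO-labelled skin, without overlap (exact permutation p = 0.1), and 3.41-fold lower in WT skin, with overlap (p = 0.2 by the same exact test). *Foxp3* relative to *Cd4* was 8.25-fold lower in KO-labelled skin, again without overlap, and 2.14-fold lower in WT skin, with overlap.

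**Figure D5:**
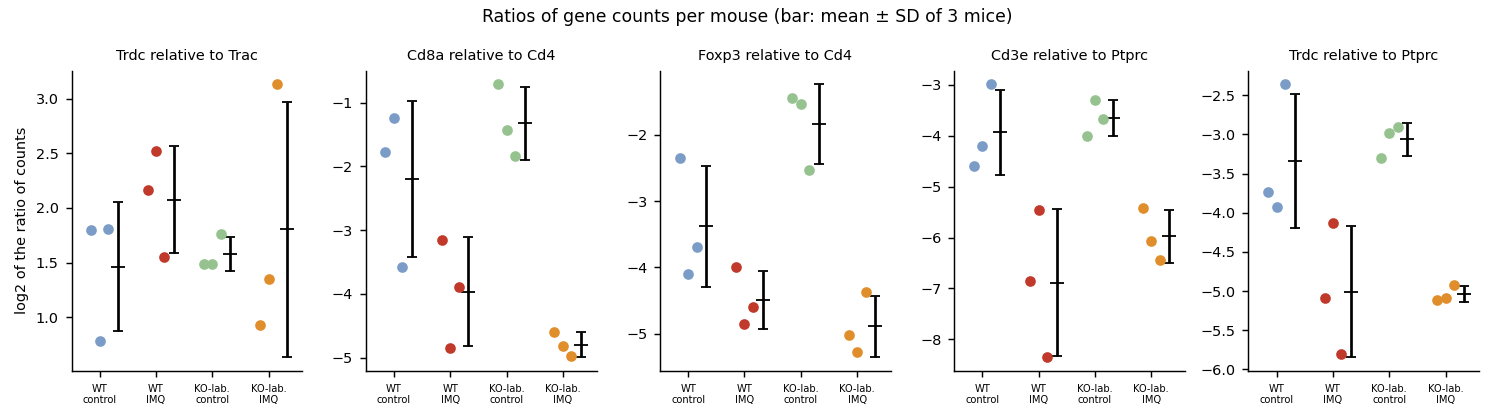
Log2 ratio of the counts of 2 genes in the same mouse (y axis, 1 scale per panel) in the 4 groups (x axis). Each dot is a mouse and the bar the mean ± SD of 3 mice. *Cd3e* and *Trdc* relative to *Ptprc* are lower in all IMQ mice than in the controls of the same genotype, and *Trdc* relative to *Trac* overlaps between all groups.

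Across the 12 mice, which share the treatment groups and so are not 1 population, the CD3 genes, *Trac*, *Trdc* and *Trdv4* were correlated with each other more than with *Cd8a*, *Foxp3* and *Cd4*. As a description, Pearson's r of the log2 CPM was 0.97 between *Cd3d* and *Trac* (Spearman's rho 0.99) and 0.95 between *Cd3e* and *Trdv4* (rho 0.97), while the lowest r among these 6 genes was 0.76, between *Trac* and *Trdc*. *Cd8a* had r between 0.48 and 0.71 with the 6, and *Foxp3* between 0.34 and 0.56. With *Cd4*, the other 8 members had r between -0.39 and -0.20. Among 15979 tested genes with a mean of at least 1 CPM, the 5 with a pattern most like *Cd3e* were *F2rl2* (r = 0.984, rho = 0.958), *Arnt2* (0.976 and 0.937), *Gpm6a* (0.975 and 0.937), *Slc44a3* (0.97 and 0.895) and *Skap1* (0.96 and 0.93). For *Trdc* they were *Pkib* (r = 0.937, rho = 0.895), *Slc44a3* (0.934 and 0.846), *Cd3e* (0.928 and 0.825), *Soat1* (0.925 and 0.888) and *Bcas1* (0.922 and 0.867).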

How the data were processed

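RNA sequencing of skin from 12 mice, 3 in each of 4 groups named by the sample labels, was analysed. The authors deposited raw counts: 1 whole number for each library and each of 56923 genes with Ensembl identifiers. The submitters' processing notes name HISAT and mm8. The annotation, the strand setting and how shared reads were counted are not given in the sources used here. The study's methods describe CPM values and DESeq2. Names and positions came from GENCODE M21 (GRCm38), which holds 52073 of the identifiers (91.5%), and the counts may rest on another build. All columns were mapped to samples.

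Counts were tested as deposited with edgeR 4.0.16 (TMM, quasi-likelihood fit of 4 group means over 12 mice, filterByExpr with minimum count 10 and minimum total 15) in R 4.3.3, and p-values were Benjamini-Hochberg adjusted over the 18529 genes tested. The standard error is the log2 fold change divided by the root of the F statistic, and intervals of log2 fold changes are 1.96 SE on each side. Such an interval can leave out 0 where the unadjusted p of the F test is above 0.05. A gene was called at an adjusted p under 0.05. Floors of 3 counts and count intervals take in counting error alone, because PCR copies of 1 molecule were not marked. The p-values measure the spread between these samples, which the labels number 1 to 3 in a group. Ratios of counts, with no pseudocount, were compared by exact two-sided permutation. Sequence stretches of 75 bases from GENCODE M21 transcripts were searched in all other genes. In simulated counts for WT IMQ against WT control (18202 genes, 200 changed 4-fold), edgeR recovered 159 (79.5%), and 11 of 170 calls (6.47%) were false. With DESeq2 1.42.0 the figures were 174 (87%) and 42 false of 216 calls (19.4%). Of the 101 changed genes at 0.5 to 25 CPM, edgeR recovered 69 and DESeq2 83. The counts were drawn with the spread that edgeR itself estimated, and far fewer genes were changed than were called in the data. The figures therefore describe that simulation and do not carry over to the members.

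The 9 members, the other gene lists and the marker lists were chosen with earlier results of these data known. Named genes are the members, up to 4 genes per list and comparison with the smallest adjusted p under 0.05, and a few genes fixed by name. The variable segments *Tcrg-V4* and *Tcrg-V6*, the follicle markers, *Tcrg-C2*, *Tcrg-C4*, *Skint1*, *Skint3*, *Tnfrsf4*, *Ikzf2*, *Tnfrsf18*, *Crx* and *Nrl* were named after their values were seen. A gene of the lists that the rule names is not reported here by name. Libraries of a group differed by more than sampling noise, so none was counted as a duplicate. Alternatives were RLE size factors, library totals without TMM, DESeq2, edgeR on the compared mice only, other filters on low counts, the replicate number as a block, a pseudocount of 0.5 CPM in ratios, an unadjusted p under 0.05 with a fold change above 2, and each mouse left out in turn. Counts thinned to the smallest library and the summed pan-leukocyte markers as library size were added after seeing the data.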

Additional observations from a re-analysis of the deposited data

Results flagged for a closer look

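None of the 9 members is listed here. For 6 genes of the related lists, the response to IMQ differed between the genotypes by edgeR's test of the difference (KO-labelled minus WT, log2 scale). Most of these calls depend on the setting: the adjusted p was under 0.05 in 14 of 18 settings, the reported one included, for *Areg*, 9 of 17 for *Il17f*, 9 of 18 for *Cxcl10*, 8 of 17 for *Ccl20*, 8 of 18 for *Tgfb1* and 7 of 18 for *Klf2*. *Il17f*, an interleukin 17 cytokine, differed by -3.54 (SE 0.57, adjusted p = 0.0223), with 0.82 to 1.54 CPM in KO-labelled controls and 0.106 to 0.185 CPM in WT controls. The WT control values are 2 to 4 counts, near the floor, so the size of this difference is uncertain. *Areg*, an epidermal growth factor family ligand, differed by -2.27 (SE 0.32, adjusted p = 0.017), with responses of 3.71 in WT and 1.44 in KO-labelled skin. *Klf2*, a transcription factor of circulating T cells that endothelium also expresses, differed by 2.24 (SE 0.48, adjusted p = 0.0431), with responses of -0.63 in WT and 1.60 in KO-labelled skin. *Tgfb1*, transforming growth factor beta 1, differed by 1.56 (SE 0.34, adjusted p = 0.0432), with responses of 0.12 in WT and 1.68 in KO-labelled skin. The chemokine gene *Ccl20* differed by -3.23 (SE 0.68, adjusted p = 0.0423), with responses of 0.14 in WT and -3.09 in KO-labelled skin. *Cxcl10*, a chemokine induced by interferon, differed by -4.06 (SE 0.69, adjusted p = 0.0247), with a mean of 106.0 CPM in KO-labelled controls and 4.62 CPM in WT controls.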

How the results depend on the processing

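With 5 members called lower in WT skin after IMQ, the count was 3 when at least 10 counts were required in every library (7 members could be tested) and between 4 and 7 under the other settings with all mice. In KO-labelled skin, where 1 member was called, it was 2 without TMM, 3 with an unadjusted p under 0.05 and a fold change above 2, 3 with edgeR and 4 with DESeq2 on the compared mice, and 8 with the summed leukocyte markers as library size. That last scaling moved the median of all genes by -1.76 in this comparison, and called 15095 of 18529 tested genes lower and 212 higher. The 8 members were all called lower with it, so their count is not read as a result about the members, and *Cd4* was then not called. Between IMQ-treated genotypes the count of 0 became 1 with DESeq2 on the compared mice, and for the difference of responses 1 with an unadjusted p under 0.05 and a fold change above 2. The cause of these changes was not tested. Without TMM, the share of higher among all calls went from 49.8% to 30.2% in WT and from 55.6% to 30.0% in KO-labelled skin, with shifts of the median of -0.17 and -0.2.

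When mice were left out one at a time, the count of members called was between 3 (without the first WT IMQ mouse) and 6 (without the second WT IMQ mouse or the third WT control) in WT skin. It was between 1 and 2 in KO-labelled skin (2 without the first IMQ mouse), between 0 and 2 for IMQ-treated genotypes and for the difference of responses (2 in both without the second WT IMQ mouse), and 0 for controls. Log2 ratios that changed sign ran from -0.44 to 0.66 (*Trdc* to *Trac*, KO-labelled IMQ against control), -0.94 to 0.16 (the same ratio between IMQ groups) and -0.23 to 0.29 (between controls). For *Cd3e* to *Ptprc* between controls the range was -0.06 to 0.74, and for *Trdc* to *Ptprc* -0.43 to 0.40 between IMQ groups, with 0.002 without the first KO-labelled IMQ mouse, and -0.01 to 0.77 between controls.

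Of the members' log2 fold changes, those that changed sign were not called in either direction. In WT skin *Foxp3* ranged from -0.60 to 0.05 when single mice were left out. Between IMQ groups *Cd8a* ranged from -0.08 to 0.29. Between controls the ranges were -0.48 to 0.13 for *Cd3d*, -0.27 to 0.20 for *Cd3e*, -0.40 to 0.08 for *Cd3g*, -0.39 to 1.00 for *Cd8a*, -0.45 to 0.33 for *Trac*, -0.20 to 0.33 for *Trdc* and -0.49 to 0.12 for *Trdv4*. For the difference of responses they were -0.81 to 0.56 for *Cd8a* and -0.001 to 1.13 for *Trdc*. With leukocyte markers as library size, the values between IMQ groups were -0.51 for *Cd8a*, -0.13 for *Trdc* and -0.06 for *Foxp3*. Between controls they were 0.28 for *Cd3d*, 0.43 for *Cd3e*, 0.14 for *Cd3g*, 0.38 for *Trac* and 0.18 for *Trdv4*, and for the difference of responses -1.33 for *Cd8a* and -0.56 for *Trdc*. *Cd3e* between controls was 0.01 without TMM. Of other genes, *Ptprc* in WT skin ranged from -0.12 to 0.58, and *Thy1* in KO-labelled skin from -0.06 to 0.26, with -0.15 without TMM. Of the members' values under the alternatives, 684 kept direction and side of the threshold, 25 gained and 5 lost the call, and 32 changed sign. For the other genes named, 1008 values kept both, 7 gained and 143 lost the call, and 6 changed sign. Calls lost in at least 5 settings include *Lck* (called in 9 of 14) and *Ptprc* (7 of 14) in KO-labelled skin, *Cst7* in WT skin (7 of 14) and *Trbc2* between IMQ groups (7 of 14).

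The replicate numbers did not pair the mice: of 18 pairs of the same number in different groups, 1 had a correlation of deviations over 0.1 (mean -0.0507), against 10 of 36 other pairs. With the number as a block, 5, 1, 0, 0 and 0 members were called in the 5 comparisons and no member's call changed, while over all genes the difference of responses had 7 higher and 3 lower calls, against 253 and 145. In that fit *Cd3e* between controls was 0.04 and the *Cd8a* difference of responses -0.03, and the exact paired test of the ratios cannot go below 0.25. Depth limits the precision for low genes such as *Foxp3*, at 10 to 28 counts per WT library, and *Trdv4*, at 0 to 15 counts in WT IMQ mice. Fits on the compared mice alone were not run for the difference of responses.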
